A study of Mus musculus with 24 samples.

Results

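The genes described here make cholesterol and fatty acids or control that synthesis, and many of them are known targets of the sterol regulatory element-binding proteins (SREBPs). The set held 31 genes chosen by name, 8 enzymes of the mevalonate and isoprenoid steps, 11 of the squalene and sterol steps, 5 SREBP factors and sensors, 2 sterol transport genes and 5 fatty acid synthesis genes. The deposited table listed 30 of them by symbol and Msmo1 under its older symbol Sc4mol by gene identifier, so 31 of 19426 genes were read, and all 31 were among the 13991 genes that passed the filter on low values. Whole kidneys came from C57BL6 mice labelled male, given a single injection of YKL-05-099 (an early pan-SIK inhibitor, known to hit other kinases too), of hPTH(1-34), an amino-terminal piece of parathyroid hormone that activates its receptor (PTH hereafter), or of vehicle. There were 8 libraries per group, and neither genotype nor age is given in the labels. The study's methods describe adult mice, a subcutaneous injection for PTH and an earlier collection of kidneys after PTH than after YKL-05-099, whereas the series text gives the intraperitoneal route for all. Agent, route and time of collection therefore cannot be told apart in any comparison with PTH. The study's text gives no separate collection time for vehicle, so whether time also differed between YKL-05-099 and vehicle is not known.

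SREBPs are made as membrane proteins of the endoplasmic reticulum. When sterols are scarce, the escort protein SCAP carries them to the Golgi, where proteases free the part that enters the nucleus and binds sterol regulatory elements, often beside sites for the factor NF-Y. When sterols are plentiful, INSIG proteins hold SCAP back. SREBP2 is best known for cholesterol synthesis genes and SREBP1 for fatty acid synthesis genes. PTH acts through cAMP and protein kinase A, which inhibits the salt-inducible kinases (SIKs), and YKL-05-099 inhibits SIKs directly. The comparison of each agent with vehicle asked which members changed after acute treatment, and the comparison of the 2 agents asked where they differed.

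Levels are FPKM, the fragments of a gene per kilobase of its transcript, scaled by the size of the library. The spacing of low values gave a depth of about 5970000 to 7060000 fragments per library, with group medians of 6775000 for YKL-05-099, 6875000 for PTH and 6820000 for vehicle. For 25 members with a single known transcript length this corresponded to a median of 47.9 fragments per library for Mvk at the low end and 4353 for Scd1 at the high end, with a counting error of 14.5% and 1.5% of the level. Although the mice are labelled male, all 24 libraries held the female transcript Xist (76.3 to 114 FPKM) and at most 0.1 FPKM of the Y-linked Ddx3y. Since 6 mice per treatment are given in the series text, a library may not stand for its own animal, and the p-values cover the scatter among libraries. Proximal tubule markers, which define the main cortical cell type, summed to 2541 to 3541 FPKM with YKL-05-099, 1926 to 2694 with PTH and 2018 to 2367 with vehicle. Of these, 2 of 6 (Slc34a1 and Gatm) were called higher with YKL-05-099 than with vehicle, against 6.26% of all genes tested. Lrp2, Slc5a2, Slc22a6 and Slc5a12 were not called. Slc34a1 alone averaged 1585 FPKM with YKL-05-099 and 1176 with vehicle, a large part of the sum. Leukocyte markers summed to 24.6 to 41.1 FPKM with YKL-05-099, 33.8 to 75.8 with PTH and 29.9 to 44.9 with vehicle. The part of these differences in the member levels was not tested. Adipocyte markers summed to 0.41 to 33.7 FPKM with YKL-05-099, 0 to 64.5 with PTH and 0.08 to 36.4 with vehicle, highest in PTH replicate 1, vehicle replicate 7 and YKL-05-099 replicates 2 and 7. Urothelium markers, from the renal pelvis, summed to 1.96 to 39.6 FPKM with YKL-05-099, 1.63 to 65.8 with PTH and 2.83 to 35.4 with vehicle. Adrenal cortex markers, from a neighbouring organ with active cholesterol use, summed to 1.5 to 2.7 FPKM with YKL-05-099, 1.35 to 2.77 with PTH and 1.97 to 2.74 with vehicle. Star made up most of this sum, at a mean of 1.84 FPKM with YKL-05-099, 1.88 with PTH and 1.875 with vehicle. No other matched adrenal marker exceeded 0.55 FPKM in any library, with Cyp11a1 at most 0.17 and Cyp11b1 at most 0.06. Cyp11b2 was not matched.

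Promoter windows of 250 bases before and 50 bases after a gene's start (RefSeq, GRCm38.p6) were matched to 24 of the 31 members, with 32 windows in all. They were searched on both strands for TCACNCCAC and for its shorter overlapping form CACCCCAC, which are sterol regulatory element letters, for CCAAT, the core of the NF-Y site, for GGGCGG, the GC box, and for TGACGTCA, the cAMP response element. CCAAT was in a window of 21 of 24 members (87.5%), against 4676 of 10996 tested genes with a window (42.5%). Counted by window it was in 22 of 32 member windows (68.8%) and 37.3% of the windows of tested genes. TCACNCCAC was in 1 of 24 members, Hmgcs1, against 1.41% of tested genes, and CACCCCAC was in Hmgcs1 and Acat2, against 3.82% of tested genes. GGGCGG was in 20 of 24 members (83.3%), against 66.1% of tested genes, and TGACGTCA was in 0 of 24, against 3.29%. The same letters stood in 35.7% (GGGCGG), 1.24% (TCACNCCAC), 2.87% (CACCCCAC), 37.4% (CCAAT) and 1.79% (TGACGTCA) of all 32851 windows of this length. These are exact matches of letters in 1 window per start, with no allowance for base composition, and no test was made. A sterol regulatory element spelled with other letters would have been missed.

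The 250 bases before the start are shown for 4 genes, with matches in capitals, both to TCACNCCAC and to CCAAT, the second of which reads ATTGG where it lies on the other strand. Hmgcs1 (chr13:119690101-119690350, + strand) is shown as the member with the full sterol element letters. Hsd17b7 (chr1:169969206-169969455, - strand) and Srebf2 (chr15:82147019-82147268, + strand) are the members without them that had the smallest adjusted p with YKL-05-099 among those with a window, and Mvk (chr5:114444019-114444268, + strand) was added after its values were seen, as the sterol gene with the largest change with either agent.
Hmgcs1: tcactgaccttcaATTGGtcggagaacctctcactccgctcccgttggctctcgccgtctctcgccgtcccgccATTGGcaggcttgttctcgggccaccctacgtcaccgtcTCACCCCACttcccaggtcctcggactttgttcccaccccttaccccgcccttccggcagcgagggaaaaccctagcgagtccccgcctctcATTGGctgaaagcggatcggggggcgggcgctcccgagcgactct
Hsd17b7: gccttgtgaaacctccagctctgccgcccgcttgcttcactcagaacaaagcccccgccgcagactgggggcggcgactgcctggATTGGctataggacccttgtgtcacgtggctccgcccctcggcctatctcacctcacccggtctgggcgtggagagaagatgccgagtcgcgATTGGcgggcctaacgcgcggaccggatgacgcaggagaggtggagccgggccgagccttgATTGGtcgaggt
Srebf2: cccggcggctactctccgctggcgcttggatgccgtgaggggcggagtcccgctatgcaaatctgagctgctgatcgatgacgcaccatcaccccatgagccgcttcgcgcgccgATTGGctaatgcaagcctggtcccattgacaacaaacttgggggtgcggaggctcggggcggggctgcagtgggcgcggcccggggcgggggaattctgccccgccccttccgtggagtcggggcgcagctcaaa
Mvk: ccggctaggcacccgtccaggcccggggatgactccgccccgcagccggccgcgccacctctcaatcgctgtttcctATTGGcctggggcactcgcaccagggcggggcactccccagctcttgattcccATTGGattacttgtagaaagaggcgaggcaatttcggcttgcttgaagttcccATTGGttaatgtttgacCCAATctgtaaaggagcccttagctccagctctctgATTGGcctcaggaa
In these letters Hmgcs1 held 1 match to TCACNCCAC, which read TCACCCCAC and began 137 bases before the start, and 3 CCAAT matches. Hsd17b7 held 3 CCAAT matches, Srebf2 held 1 and Mvk held 5.

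With YKL-05-099, 13 of 31 members were higher than with vehicle and 0 were lower, against a background of 6.26% of the 13991 genes higher and 11.5% lower. The 13 were Mvk, Mvd, Idi1, Fdps, Sqle, Msmo1, Nsdhl, Hsd17b7, Dhcr7, Srebf2, Scap, Insig1 and Acly. With PTH, 9 of 31 members were higher than with vehicle and 0 were lower, against a background of 6.00% of genes higher and 11.1% lower, and the 9 were Mvk, Pmvk, Fdps, Sqle, Cyp51, Hsd17b7, Srebf2, Scd1 and Acly. A gene was called at a Benjamini-Hochberg adjusted p below 0.05 over all genes tested, from limma on log2(FPKM + 0.1), and every log2 difference below is on that scale. The median log2 difference of the members was 0.24 with YKL-05-099 and 0.18 with PTH, against a median of -0.05 over all genes tested in each comparison. The background depended on scaling. Under median-ratio scaling, an alternative scaling of the libraries, 1164 genes were higher and 1150 lower with YKL-05-099, and 1097 and 1101 with PTH. The medians over all genes were then -0.001 and -0.003. Of the members, 14 were then higher with YKL-05-099 and 11 with PTH, and 0 were lower with either. In the direct comparison of YKL-05-099 with PTH, 1 member was called higher (Dhcr7) and 3 lower (Acly, Pmvk and Scd1), against a background of 2.84% of genes higher and 3.58% lower, and the members' median was 0.10, against 0.00 over all genes tested. The comparisons with vehicle share the 8 vehicle libraries, so they are not independent of each other. In whole kidney, more cells of a type and more RNA per cell cannot be told apart.

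**Figure D1:**
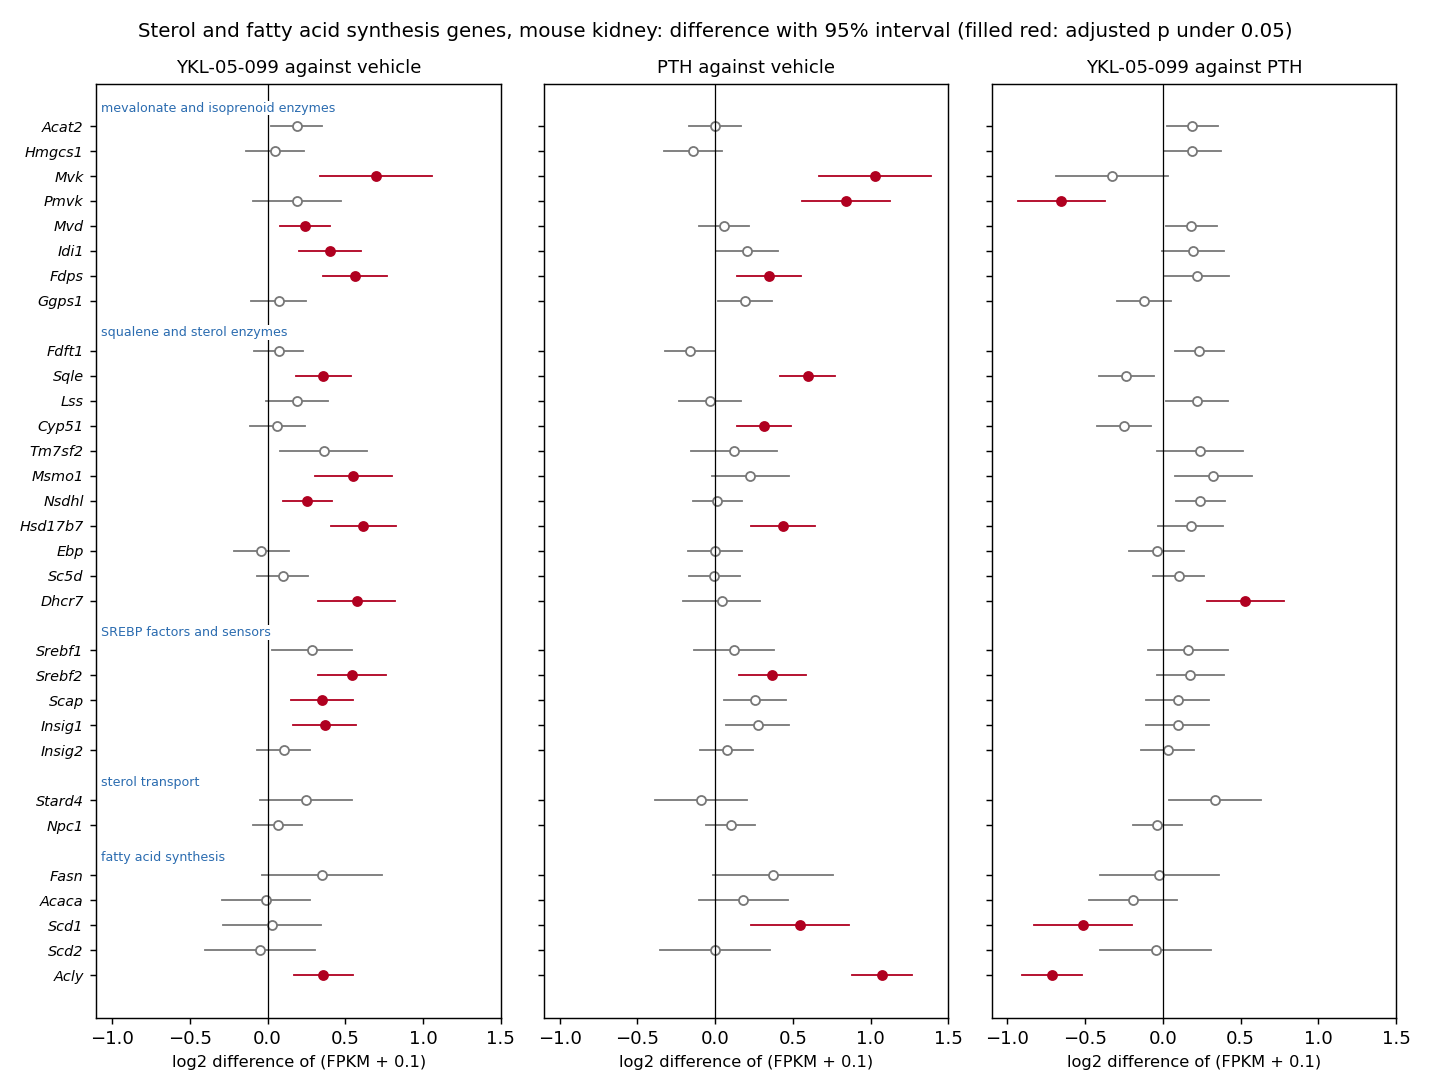
Log2 difference of FPKM + 0.1 (x axis) with its 95% interval for each of the 31 members (rows, grouped by role), for YKL-05-099 against vehicle, PTH against vehicle and YKL-05-099 against PTH. Filled red points have an adjusted p below 0.05; they number 13, 9 and 4 from left to right, and in the comparisons with vehicle all of them lie above 0.

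Acly, the ATP citrate lyase that makes cytosolic acetyl-CoA for both sterols and fatty acids (chr11:100476352-100528000), had the largest difference among the members. Its level in the 8 YKL-05-099 libraries had a lowest value of 34.7, a median of 42.3 and a highest value of 58.7 FPKM. In the PTH libraries these were 61.8, 71.9 and 91.4 FPKM, and in the vehicle libraries 30.9, 33.8 and 40.2 FPKM. Every PTH library was thus above every YKL-05-099 and every vehicle library, while the YKL-05-099 and vehicle libraries overlapped. Acly rose by a log2 difference of 0.36 with YKL-05-099 (SE 0.09, adjusted p = 0.00936) and of 1.07 with PTH (SE 0.09, adjusted p = 5.5e-09). It was lower with YKL-05-099 than with PTH, at -0.71 (SE 0.09, adjusted p = 1.9e-05).

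Scd1, the stearoyl-CoA desaturase that makes monounsaturated fatty acids, was among the most abundant members. It lay between 68.3 and 159 FPKM with YKL-05-099 (median 129), between 132 and 264 with PTH (median 164) and between 84.1 and 145 with vehicle (median 125), and the groups overlapped. It rose with PTH (0.54, SE 0.15, adjusted p = 0.0152), was at 0.03 with YKL-05-099 (adjusted p = 0.922), and was lower with YKL-05-099 than with PTH (-0.51, SE 0.15, adjusted p = 0.0435). Without the 4 libraries highest in adipocyte markers the PTH difference was 0.47 (adjusted p = 0.0507), and without the 4 highest in urothelium markers it was also 0.47 (adjusted p = 0.0754). The call between the agents was lost when any 1 of vehicle replicates 4 and 6, PTH replicates 1, 3, 5, 6 and 7 or YKL-05-099 replicates 2, 3, 4, 5, 6 and 8 was left out (adjusted p = 0.0503 to 0.0969). It was also lost with no filter on low values (adjusted p = 0.0633), with library weights (0.069), in a fit over these 2 groups (0.0823), and without the 4 libraries highest in adipocyte (0.0634) or urothelium markers (0.117).

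Its close relative Scd2 averaged 15.6 ± 4.92 FPKM with YKL-05-099, 15.9 ± 4.35 with PTH and 15.8 ± 3.38 with vehicle (SD, n = 8 each), and was not called in any comparison. Up to 4.66% of the 50-base windows in Scd1 and Scd2 transcripts occurred in other genes, mainly within that family.

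Fasn, the fatty acid synthase, and Acaca, the acetyl-CoA carboxylase that feeds it, were not called in any comparison. Fasn averaged 6.69 ± 1.89 FPKM with YKL-05-099, 6.95 ± 2.79 with PTH and 5.21 ± 1.56 with vehicle, and its log2 difference from vehicle was 0.35 (95% interval -0.04 to 0.73) with YKL-05-099 and 0.37 (-0.01 to 0.76) with PTH. The highest Fasn value of each group was in the library with the most adipocyte marker RNA in that group, 10.6 FPKM in YKL-05-099 replicate 2, 13.4 in PTH replicate 1 and 9.02 in vehicle replicate 7. Without the 4 libraries highest in adipocyte markers Fasn passed the threshold with PTH (0.35, adjusted p = 0.0351), and without the 4 highest in urothelium markers it passed with YKL-05-099 (0.37, adjusted p = 0.0361). With library weights it also passed with YKL-05-099 (0.41, adjusted p = 0.047). Acaca averaged 3.12 ± 0.65 FPKM with YKL-05-099, 3.63 ± 1.13 with PTH and 3.11 ± 0.41 with vehicle, with a highest value of 6.32 FPKM in PTH replicate 1. Of its 50-base windows 52.6% also occurred in Gm5182, so reads of the 2 genes may be split between them. The highest Acly value with PTH was in replicate 4, whose adipocyte markers summed to 0.61 FPKM, and the part of adipocyte RNA in the Fasn, Acaca and Acly levels was not tested.

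**Figure D2:**
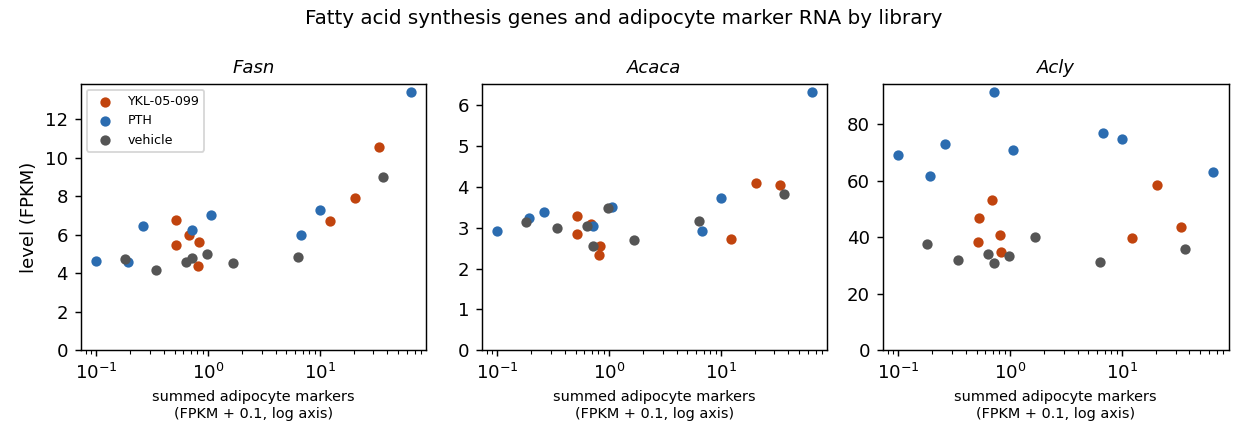
Level in FPKM (y axis) of Fasn, Acaca and Acly in each of the 24 libraries against the summed level of 6 adipocyte markers (x axis, FPKM + 0.1 on a log axis), coloured by group. Fasn was at 10.6 FPKM in YKL-05-099 replicate 2, 13.4 in PTH replicate 1 and 9.02 in vehicle replicate 7, the 3 libraries with the most marker RNA, and Acly ran from 34.7 to 58.7 FPKM with YKL-05-099, 61.8 to 91.4 with PTH and 30.9 to 40.2 with vehicle.

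**Figure D3:**
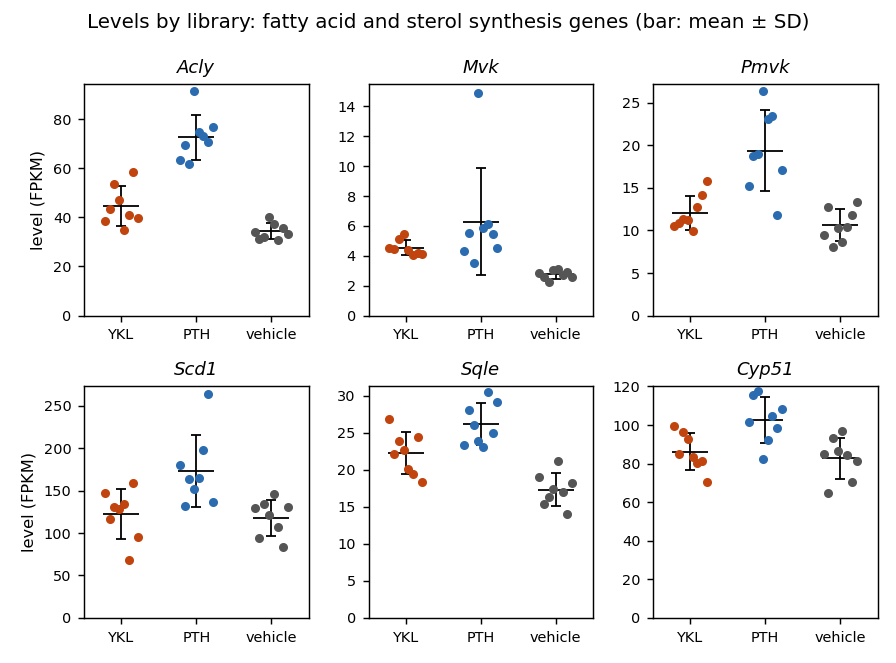
Level in FPKM (y axis, from 0) of Acly, Mvk, Pmvk, Scd1, Sqle and Cyp51 in each library (points), with the group mean and SD (bars), for YKL-05-099 (YKL), PTH and vehicle. PTH libraries lie at 61.8 to 91.4 FPKM for Acly, above all others, and 1 PTH library at 14.9 FPKM stands apart for Mvk.

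In the mevalonate steps the 2 kinase genes Mvk and Pmvk had the largest differences between PTH and vehicle, and Mvk, Fdps and Idi1 those between YKL-05-099 and vehicle. Mvk, the mevalonate kinase (chr5:114444264-114460591), ranged from 4.06 to 5.45 FPKM with YKL-05-099 (median 4.42), from 3.53 to 14.9 with PTH (median 5.49) and from 2.27 to 3.11 with vehicle (median 2.78). Every library of either agent was above every vehicle library. Mvk rose by 0.70 with YKL-05-099 (SE 0.18, adjusted p = 0.00756) and by 1.03 with PTH (SE 0.18, adjusted p = 1.8e-04). PTH replicate 4 held the value of 14.9 FPKM, the next PTH library was at 6.11, and without replicate 4 the PTH difference was 0.83 (adjusted p = 3.7e-06). Between the agents it was -0.33 (95% interval -0.69 to 0.03, adjusted p = 0.3), and -0.13 without PTH replicate 4.

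Pmvk, the phosphomevalonate kinase that acts next (chr3:89454541-89469014), ranged from 9.99 to 15.8 FPKM with YKL-05-099 (median 11.3), from 11.8 to 26.3 with PTH (median 18.9) and from 8.1 to 13.3 with vehicle (median 10.3). All but 1 of the PTH libraries, replicate 7, lay above the highest vehicle library. The log2 difference was 0.84 with PTH (SE 0.14, adjusted p = 9.8e-05) and 0.19 with YKL-05-099 (95% interval -0.09 to 0.47, adjusted p = 0.364). Pmvk was lower with YKL-05-099 than with PTH, by a log2 difference of -0.65 (SE 0.14, adjusted p = 0.00395).

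Of the enzymes after the kinases, Fdps, Idi1 and Mvd were called higher with YKL-05-099 and Fdps with PTH, and none was called between the agents. Fdps, the farnesyl diphosphate synthase, ranged from 9.93 to 15.7 FPKM with YKL-05-099 (median 11.9), from 8.75 to 13.4 with PTH (median 10.1) and from 6.9 to 10.1 with vehicle (median 8.60). The ranges of both agents overlapped the vehicle range. Fdps rose by 0.57 with YKL-05-099 (SE 0.10, adjusted p = 6.3e-04) and by 0.34 with PTH (SE 0.10, adjusted p = 0.0189). The gene shares exon sequence on the same strand with Gm43738, which covers 26.7% of its exon bases.

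Idi1, the isopentenyl diphosphate isomerase, ranged from 14.8 to 22.7 FPKM with YKL-05-099 (median 19.8), from 12.2 to 20.9 with PTH (median 17.5) and from 12.5 to 18.7 with vehicle (median 14.6). It rose with YKL-05-099 (0.40, SE 0.10, adjusted p = 0.00626), and its difference with PTH was 0.21 (adjusted p = 0.155), or 0.28 without PTH replicate 4, which passed the threshold (adjusted p = 0.0275). In Idi1 21.3% of 50-base windows also occur in Gm13502. Mvd, the mevalonate diphosphate decarboxylase, averaged 16.1 ± 1.88 FPKM with YKL-05-099, 14.1 ± 1.78 with PTH and 13.5 ± 0.94 with vehicle. Its rise with YKL-05-099 was small (0.24, SE 0.08, adjusted p = 0.0364), and the call was lost when any 1 of vehicle replicates 1, 4, 5 and 7 or YKL-05-099 replicates 1, 3, 4, 5 and 6 was left out (adjusted p = 0.0505 to 0.0798).

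The first enzymes of the route, Acat2 and Hmgcs1, and the later Ggps1 were not called in any comparison. Hmgcs1, the HMG-CoA synthase and the most abundant member in vehicle kidneys, ranged from 152 to 186 FPKM with YKL-05-099 (median 167), from 95.4 to 179 with PTH (median 152) and from 136 to 191 with vehicle (median 164). Its log2 difference from vehicle was 0.05 (95% interval -0.14 to 0.23) with YKL-05-099 and -0.14 (-0.33 to 0.04) with PTH. Its promoter is the one with the sterol element letters shown above. The lowest value was in PTH replicate 4, without which the PTH difference was -0.05. Acat2, the cytosolic acetoacetyl-CoA thiolase, averaged 39.4 ± 5.09 FPKM with YKL-05-099, 34.5 ± 4.07 with PTH and 34.4 ± 3.33 with vehicle, with 45.9% of its 50-base windows shared with Acat3. Its log2 difference from vehicle with YKL-05-099 was 0.19 (95% interval 0.02 to 0.35, adjusted p = 0.103). With library weights it passed the threshold (0.20, adjusted p = 0.0475). Ggps1, the geranylgeranyl diphosphate synthase of the side branch to protein prenylation, averaged 12.5 ± 1.23 FPKM with YKL-05-099, 13.7 ± 1.96 with PTH and 11.9 ± 1.26 with vehicle. Its log2 difference from vehicle with PTH was 0.19 (95% interval 0.02 to 0.37, adjusted p = 0.129), and with library weights it passed (0.23, adjusted p = 0.046).

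Among the 11 squalene and sterol enzymes, 5 rose with YKL-05-099 and 3 with PTH, beside 6.26% and 6.00% of all genes tested. Sqle, the squalene monooxygenase, a control point of the sterol branch (chr15:59315092-59331193), ranged from 18.4 to 26.9 FPKM with YKL-05-099 (median 22.5), from 23.1 to 30.5 with PTH (median 25.5) and from 14.1 to 21.2 with vehicle (median 17.2). Every PTH library was above every vehicle library, and the YKL-05-099 libraries overlapped both. The log2 difference was 0.36 with YKL-05-099 (SE 0.09, adjusted p = 0.00574) and 0.59 with PTH (SE 0.09, adjusted p = 2.0e-05). Without the 4 libraries highest in adipocyte markers the YKL-05-099 difference was 0.29 (adjusted p = 0.0506). Cyp51, the lanosterol demethylase, ranged from 70.6 to 99.4 FPKM with YKL-05-099 (median 84.4), from 82.4 to 118 with PTH (median 103) and from 64.5 to 96.9 with vehicle (median 84.6). It rose with PTH (0.31, SE 0.09, adjusted p = 0.012) and was at 0.06 with YKL-05-099 (95% interval -0.11 to 0.24).

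Hsd17b7, which acts in the removal of the sterol methyl groups (chr1:169949535-169969242), rose with both agents. It ranged from 5.68 to 7.89 FPKM with YKL-05-099 (median 6.97), from 4.75 to 7.43 with PTH (median 6.17) and from 3.66 to 5.34 with vehicle (median 4.23). All YKL-05-099 libraries lay above all vehicle libraries, while PTH and vehicle overlapped. The log2 difference was 0.62 with YKL-05-099 (SE 0.10, adjusted p = 2.7e-04) and 0.44 with PTH (SE 0.10, adjusted p = 0.00365).

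Dhcr7, the reductase that makes cholesterol from its last precursor on one branch and whose substrate is also the precursor of vitamin D in skin (chr7:143823167-143848410), separated the agents. It ranged from 5.99 to 7.68 FPKM with YKL-05-099 (median 6.56), from 3.35 to 5.69 with PTH (median 4.77) and from 2.81 to 5.45 with vehicle (median 4.42). Every YKL-05-099 library was above every library of the other groups, whose ranges overlapped nearly throughout. Dhcr7 was higher with YKL-05-099 by a log2 difference of 0.57 from vehicle (SE 0.12, adjusted p = 0.00226) and of 0.53 from PTH (SE 0.12, adjusted p = 0.00729). With PTH its difference from vehicle was 0.04 (95% interval -0.20 to 0.29).

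Msmo1, an oxidase that acts in the removal of sterol methyl groups, ranged from 11.4 to 21.9 FPKM with YKL-05-099 (median 16), from 10.5 to 18.1 with PTH (median 12.7) and from 8.74 to 13.9 with vehicle (median 10.7), and the groups overlapped. It rose with YKL-05-099 (0.55, SE 0.12, adjusted p = 0.00316) and was at 0.23 with PTH (adjusted p = 0.217). Nsdhl, a dehydrogenase of the same steps, averaged 36.4 ± 6.31 FPKM with YKL-05-099, 30.4 ± 0.87 with PTH and 30.2 ± 2.3 with vehicle. Its rise with YKL-05-099 was 0.26 (SE 0.08, adjusted p = 0.0215), and this call was lost without the 4 libraries highest in adipocyte markers (0.23, adjusted p = 0.112) and without the 4 highest in urothelium markers (0.24, adjusted p = 0.0747).

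The other 5 enzymes of these steps were not called against vehicle. Tm7sf2, a sterol reductase, came closest with YKL-05-099 (0.36, 95% interval 0.08 to 0.64, adjusted p = 0.0647), and it passed when vehicle replicate 5, PTH replicate 4 or YKL-05-099 replicate 1 was left out (adjusted p = 0.018 to 0.0453). Tm7sf2 also passed with YKL-05-099 under median-ratio scaling (adjusted p = 0.0475), quantile normalization (0.0475) and library weights (0.0142). Its exons overlap Vps51 over 12.1% of their bases. Fdft1, the squalene synthase, averaged 17.1 ± 1.5 FPKM with YKL-05-099, 14.6 ± 1.64 with PTH and 16.3 ± 1.94 with vehicle, with an opposite-strand overlap with Ctsb over 18.3% of its exon bases. Lss, the lanosterol synthase, averaged 4.79 ± 0.45 FPKM with YKL-05-099, 4.12 ± 0.57 with PTH and 4.22 ± 0.63 with vehicle. Ebp, the sterol isomerase, averaged 45.4 ± 5.91 FPKM with YKL-05-099, 46.7 ± 6.96 with PTH and 46.5 ± 4.12 with vehicle. Sc5d, the sterol desaturase, averaged 16.8 ± 1.51 FPKM with YKL-05-099, 15.7 ± 2.06 with PTH and 15.7 ± 1.68 with vehicle.

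Of the SREBP factors and sensors, 3 of 5 rose with YKL-05-099 (6.26% of all genes tested) and 1 with PTH (6.00%). Srebf2, which encodes SREBP2 (chr15:82147269-82205379), ranged from 10.8 to 18.3 FPKM with YKL-05-099 (median 14.6), from 10.3 to 16.4 with PTH (median 12.7) and from 7.94 to 11.6 with vehicle (median 10.1). All but 1 YKL-05-099 library, replicate 8, lay above the highest vehicle library. The log2 difference was 0.54 with YKL-05-099 (SE 0.11, adjusted p = 0.00125) and 0.37 with PTH (SE 0.11, adjusted p = 0.0164). Srebf1, which encodes SREBP1, averaged 5.30 ± 0.98 FPKM with YKL-05-099, 4.74 ± 0.90 with PTH and 4.33 ± 0.77 with vehicle, with log2 differences of 0.28 with YKL-05-099 (95% interval 0.03 to 0.54, adjusted p = 0.116) and 0.12 with PTH (-0.14 to 0.38). Srebf1 passed with YKL-05-099 under quantile normalization (0.34, adjusted p = 0.0356) and library weights (0.31, adjusted p = 0.0385).

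Scap, the escort of SREBPs, ranged from 12.8 to 17.2 FPKM with YKL-05-099 (median 14.3), from 10.1 to 18.2 with PTH (median 14.1) and from 9.43 to 12.5 with vehicle (median 11.2). The YKL-05-099 libraries were all above the vehicle libraries, and the PTH libraries were the most spread. The difference was 0.35 with YKL-05-099 (SE 0.10, adjusted p = 0.0142) and 0.26 with PTH (SE 0.10, adjusted p = 0.0715). With PTH it passed when PTH replicate 2, 3 or 4 was left out (adjusted p = 0.0155 to 0.0432). It also passed with PTH under median-ratio scaling (adjusted p = 0.0366), quantile normalization (0.048), library weights (0.0117) and a block on replicate number (0.0387).

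Insig1, the inhibitor that is itself a target of SREBPs, ranged from 12.6 to 20.4 FPKM with YKL-05-099 (median 16.8), from 11.9 to 18.3 with PTH (median 15.2) and from 11.3 to 14.8 with vehicle (median 12.3). The difference was 0.37 with YKL-05-099 (SE 0.10, adjusted p = 0.0122) and 0.27 with PTH (SE 0.10, adjusted p = 0.0597). With PTH it passed when vehicle replicate 8, PTH replicate 7 or 8, or YKL-05-099 replicate 5 or 6 was left out (adjusted p = 0.027 to 0.0477). It also passed with PTH under median-ratio scaling (adjusted p = 0.03) and quantile normalization (0.0478). Without the 4 libraries highest in adipocyte markers, the YKL-05-099 calls of Scap (0.35, adjusted p = 0.0589) and Insig1 (0.35, adjusted p = 0.0528) were lost at nearly the same size of difference. Insig2, its relative, averaged 15.1 ± 1.15 FPKM with YKL-05-099, 14.8 ± 1.68 with PTH and 14.2 ± 2.04 with vehicle and was not called in any comparison.

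**Figure D4:**
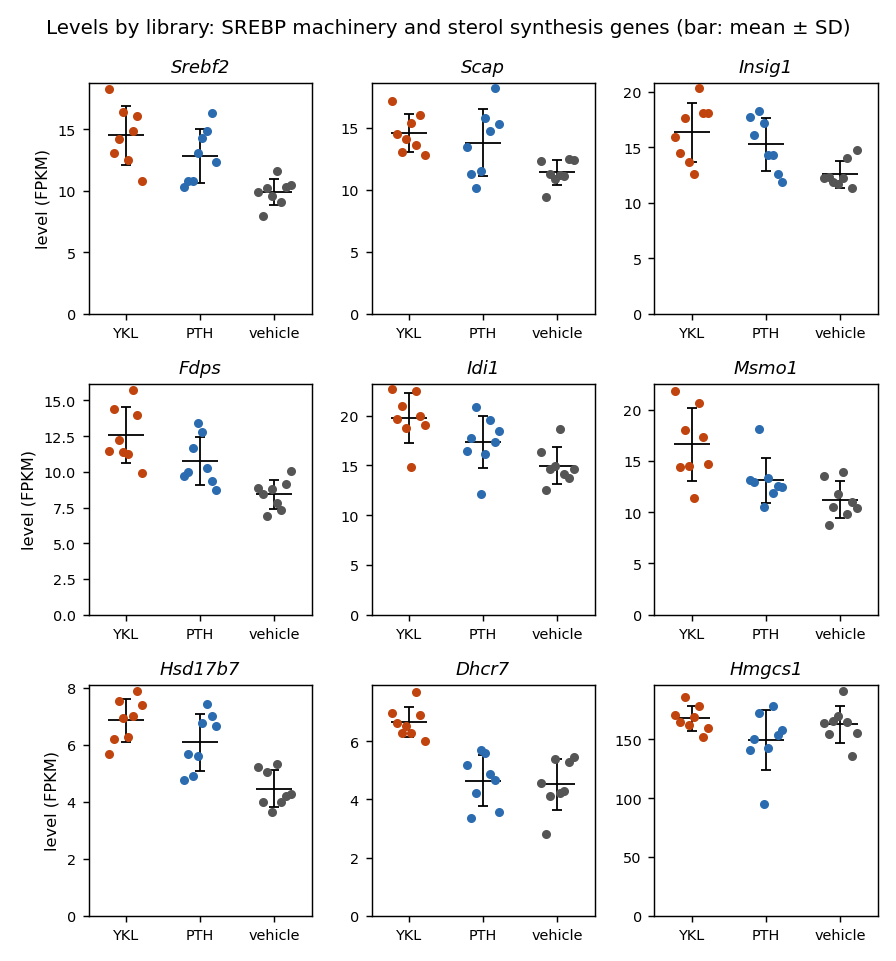
Level in FPKM (y axis, from 0) in each library (points), with the group mean and SD (bars), of Srebf2, Scap and Insig1 and of 6 sterol synthesis genes, for YKL-05-099 (YKL), PTH and vehicle. All YKL-05-099 libraries lie above all vehicle libraries for Scap, Hsd17b7 and Dhcr7, and Dhcr7 with PTH (3.35 to 5.69 FPKM) overlaps vehicle (2.81 to 5.45 FPKM), while Hmgcs1 overlaps in all groups.

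Neither sterol transport gene was called in any comparison. Stard4, a cytosolic sterol carrier, averaged 12.3 ± 2.24 FPKM with YKL-05-099, 9.85 ± 2.44 with PTH and 10.3 ± 1.74 with vehicle. Npc1, which exports cholesterol from lysosomes, averaged 4.99 ± 0.55 FPKM with YKL-05-099, 5.11 ± 0.54 with PTH and 4.75 ± 0.31 with vehicle.

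Apart from Dhcr7, Acly, Pmvk and Scd1, no member was called between YKL-05-099 and PTH, but several lay near the threshold. Nsdhl was at 0.24 (adjusted p = 0.0569), Fdft1 at 0.24 (adjusted p = 0.0715), Cyp51 at -0.25 (adjusted p = 0.0812), Sqle at -0.24 (adjusted p = 0.103) and Msmo1 at 0.33 (adjusted p = 0.112). Leaving out 1 library brought each of them past it, YKL-05-099 replicate 4 or 5 for Nsdhl (adjusted p = 0.0444 and 0.0127), PTH replicate 4 or YKL-05-099 replicate 1 for Fdft1 (0.0308 and 0.0343) and for Cyp51 (0.0287 and 0.0449), YKL-05-099 replicate 1 for Sqle (0.0435), and PTH replicate 3 or YKL-05-099 replicate 5 for Msmo1 (0.0467 and 0.0419). The fatty acid genes had a median log2 difference of -0.19 between YKL-05-099 and PTH, with 0 of 5 above 0, and the squalene and sterol enzymes one of 0.22, with 8 of 11 above 0.

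By library, the median deviation of the 31 members from their vehicle means, on the log2 scale, ran from 0.14 to 0.42 with YKL-05-099, from 0.05 to 0.26 with PTH and from -0.08 to 0.12 with vehicle. Each YKL-05-099 library was above the highest vehicle library, and some PTH libraries were not. The squalene and sterol enzymes had group medians of 0.25 with YKL-05-099, 0.08 with PTH and -0.001 with vehicle. Those of the mevalonate and isoprenoid enzymes were 0.28 with YKL-05-099, 0.21 with PTH and 0.015 with vehicle. The fatty acid genes were the most spread, from -0.39 to 0.45 with YKL-05-099, from -0.05 to 0.88 with PTH and from -0.16 to 0.30 with vehicle. The highest of the PTH values was that of replicate 1, the library with the most adipocyte marker RNA. These are descriptions of chosen genes, with no test.

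**Figure D5:**
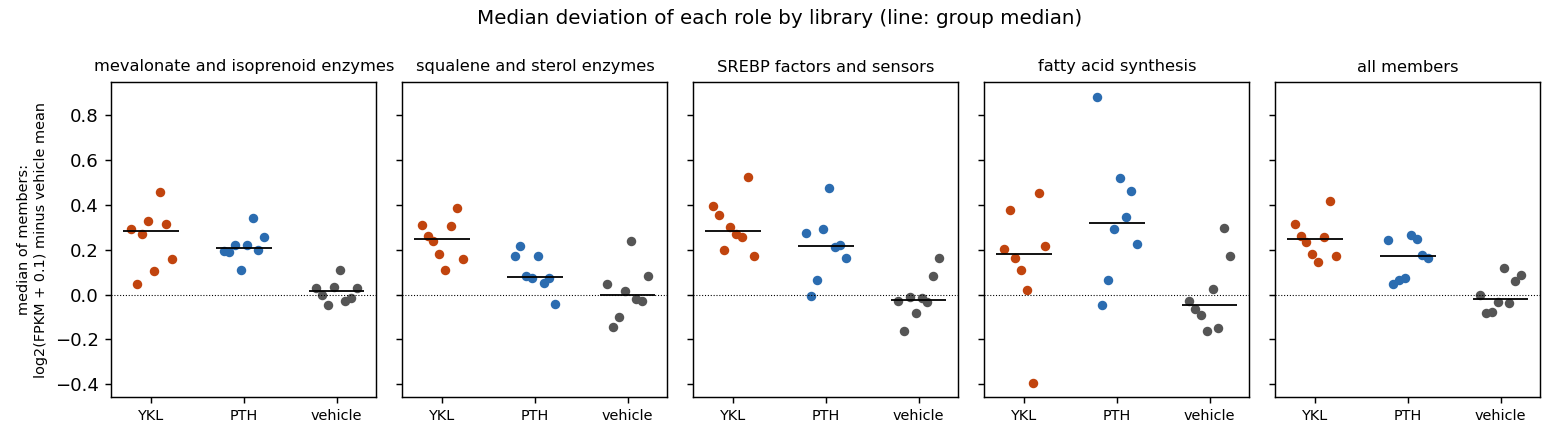
Median over the members of each role of log2(FPKM + 0.1) minus the vehicle mean of the same gene (y axis), for each library (points) and group (line: group median), in 4 roles and over all 31 members. Over all members YKL-05-099 libraries lie at 0.14 to 0.42, PTH libraries at 0.05 to 0.26 and vehicle libraries at -0.08 to 0.12.

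Further genes of the same pathways were read from lists that, like the members, were chosen with earlier results of these data known. Of 11 other lipogenic SREBP targets, 5 rose and 0 fell with YKL-05-099 (all genes tested: 6.26% and 11.5%), and 3 rose and 0 fell with PTH (all genes tested: 6.00% and 11.1%). Lpin1, a phosphatidate phosphatase that also acts in the nucleus, averaged 37.4 FPKM with YKL-05-099, 66.1 with PTH and 16.2 with vehicle, and its log2 difference from vehicle was 1.19 with YKL-05-099 (adjusted p = 1.1e-04) and 2.03 with PTH (adjusted p = 9.3e-09). It was lower with YKL-05-099 than with PTH (-0.85, adjusted p = 0.0048). In that direct comparison 2 of the 11 were called higher and 1, Lpin1, lower (all genes tested: 2.84% and 3.58%). The median log2 difference of the 11 was 0.08, with 7 above 0. The fatty acid desaturases Fads1 (0.38, adjusted p = 2.8e-04) and Fads2 (0.54, adjusted p = 0.00702) and the mitochondrial citrate carrier Slc25a1 (0.24, adjusted p = 0.0144) rose with YKL-05-099, and the elongase Elovl6 with PTH (0.51, adjusted p = 0.0102). The elongase Elovl5 rose by 0.28 with YKL-05-099 (adjusted p = 0.00684) and by 0.26 with PTH (adjusted p = 0.00945).

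Of 12 other sterol and isoprenoid enzymes, 1 rose and 1 fell with YKL-05-099, and 0 rose and 1 fell with PTH, beside shares of all genes tested of 6.26% and 11.5% with YKL-05-099 and of 6.00% and 11.1% with PTH. The one that fell was Acat1, the mitochondrial thiolase, by 0.17 on the log2 scale with YKL-05-099 (adjusted p = 0.0219) and by 0.17 with PTH (adjusted p = 0.0269). Of 10 genes of SREBP processing and turnover, 1 rose with YKL-05-099, beside 6.26% of all genes tested, and 3 rose with PTH, beside 6.00%. Erlin1, part of a membrane complex of the endoplasmic reticulum that binds ubiquitin ligases, averaged 38.8 FPKM with YKL-05-099, 57.7 with PTH and 36.4 with vehicle, and rose with PTH (0.66, adjusted p = 1.5e-08). Syvn1, a ubiquitin ligase of the same membrane, rose with PTH by 0.72 (adjusted p = 2.1e-04), and both were lower with YKL-05-099 than with PTH (-0.57, adjusted p = 1.3e-06 for Erlin1 and -0.48, adjusted p = 0.0188 for Syvn1). Spring1, needed for SREBP activation in cultured cells, rose by 0.38 with YKL-05-099 (adjusted p = 0.046) and by 0.49 with PTH (adjusted p = 0.0102).

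Of 6 LXR receptors and targets, the sterol-excess arm, 2 rose with YKL-05-099 (6.26% of all genes tested) and 2 with PTH (6.00%). With YKL-05-099 the median log2 difference of the 6 was 0.03, with 3 above 0 and the lowest at -0.57. With PTH the median was 0.045, with 5 above 0 and the lowest at -0.06. Mylip, a ubiquitin ligase for lipoprotein receptors, averaged 42.7 FPKM with YKL-05-099, 49.2 with PTH and 21.1 with vehicle, with differences of 1.01 with YKL-05-099 (adjusted p = 4.8e-06) and 1.20 with PTH (adjusted p = 5.6e-08). The receptor gene Nr1h2 rose by 0.25 with each. Of 11 genes of cholesterol transport and storage, 0 rose with either agent, 1 fell with YKL-05-099 and 2 fell with PTH, beside 11.5% and 11.1% of all genes tested. Npc2, the soluble partner of NPC1 in lysosomes, averaged 26.5 FPKM with YKL-05-099, 28.3 with PTH and 32.9 with vehicle, and on the log2 scale fell by 0.31 with YKL-05-099 (adjusted p = 6.1e-04) and by 0.22 with PTH (adjusted p = 0.00671). Stard5, a sterol carrier, fell by 0.20 with PTH (adjusted p = 0.0371).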

How the data were processed

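Whole-kidney RNA was sequenced on the BGISEQ500 platform, and the authors deposited 1 table of FPKM values covering 24 libraries. STAR 2.7.2b, RSEM 1.3.0, DESeq2, mm10 and GRCm38 appear in the submitters' processing notes without a role. Their filters and whether strand was used are not stated there, so overlapping genes on opposite strands may share reads. Because FPKM scales each library to its own total, a large change in an abundant gene moves the values of other genes. One further value column, equal to PTH replicate 3, was not used.

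Samples were grouped by labelled treatment (8 each). Deposited FPKM values were analysed as log2(FPKM + 0.1), a scale that compresses differences at low levels, for the 13991 genes averaging 0.5 FPKM or more. All 3 groups entered 1 model in limma 3.58.1 under R 4.3.3, with a mean-variance trend, and p-values were adjusted by Benjamini-Hochberg over these genes. The model was also run on simulated data, and the outcome is not reported here. Depth was estimated from the spacing of low values, of which 76.0% to 84.3% (by library) came within 0.2 of whole fragments, and counting errors cover counting alone. Shared sequence was counted as 50-base windows of GENCODE transcripts, and gene positions are those of RefSeq on GRCm38.

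The 31 members and all lists were chosen with earlier results of these data known. All members are named whatever their test, and up to 4 genes with the smallest adjusted p are named per further list and comparison. The single-gene result of 1 called gene of these lists is not reported here. Alternatives changed the pseudocount, the filter or the scaling, weighted libraries, blocked on replicate number, fitted only 2 groups, or left out each library or the 4 libraries highest in adipocyte or urothelium markers. Python 3.11.15, pandas 2.3.3 and numpy 2.4.6 were also used.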

Additional observations from a re-analysis of the deposited data

Results flagged for a closer look

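Single libraries that stood far from the other 7 of their group, by a gap larger than Dixon's 95% limit on the log2 scale, were found for members in 12 of 93 groups tested, where chance alone flags about 1 in 20 groups. PTH replicate 4 accounted for 3 of them, with Hmgcs1 at 95.4 FPKM (the next library at 141), Idi1 at 12.2 FPKM (the next at 16.2) and Mvk at 14.9 FPKM (the next at 6.11), so the first 2 were the lowest and Mvk the highest of the group. Leukocyte markers summed to 75.8 FPKM in PTH replicate 4, the highest of all libraries (the next PTH library at 51.2), and their part in these values was not tested. PTH replicate 1 was the highest for Fasn (13.4 FPKM, the next at 7.3) and Acaca (6.32 FPKM, the next at 3.73), and vehicle replicate 7 for Fasn (9.02 FPKM, the next at 4.99), and these were the 2 libraries with the most adipocyte marker RNA, whose part in the values was not tested. Vehicle replicate 2 was the lowest for Tm7sf2 (2.75 FPKM) and Dhcr7 (2.81 FPKM). The others were Idi1 in YKL-05-099 replicate 5 (14.8 FPKM, lowest), Tm7sf2 in YKL-05-099 replicate 1 (3.8 FPKM, lowest), Msmo1 in PTH replicate 3 (18.1 FPKM, highest) and Ggps1 in vehicle replicate 1 (9.43 FPKM, lowest).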

How the results depend on the processing

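No member changed direction past the threshold under any alternative run. The count of members called higher stayed at 9 to 17 with YKL-05-099 and at 8 to 11 with PTH, and 0 members were called lower with either under each alternative. Between YKL-05-099 and PTH, 2 members instead of 1 were called higher with quantile normalization and with library weights, and with 1 library left out the counts ran from 1 to 3 higher and from 2 to 5 lower. Over all genes, library weights called 1347 higher and 2487 lower with YKL-05-099 against vehicle, and leaving out the 4 libraries highest in adipocyte markers called 504 and 843, against 876 and 1605. Between YKL-05-099 and PTH, where 397 were higher and 501 lower, a fit over these 2 groups called 230 and 291, leaving out the 4 libraries highest in adipocyte markers called 201 and 259, and leaving out the 4 highest in urothelium markers called 278 lower. Fits over 2 groups or without 4 libraries rest on fewer libraries, and the cause of the other shifts was not tested. Median-ratio scaling moved the split of calls with YKL-05-099 to 1164 higher and 1150 lower and with PTH to 1097 and 1101, with a shift of the median of all genes of at most 0.046. Libraries with the same replicate number did not deviate together (correlations from -0.201 to 0.202, over 0.1 in 1 of 24 pairs), so the numbers were not taken as pairs, and with the replicate number as a block 12 members were called higher with YKL-05-099 (Mvd was lost, adjusted p = 0.0546) and 10 with PTH (Scap was added, adjusted p = 0.0387), while between the agents Scd1 was lost (adjusted p = 0.0549). For Mvk and Tm7sf2, with a median near 50 fragments, counting error alone was 14.5% and 14.2%, which limits how small a change could be seen.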
